A study of Homo sapiens with 26 samples.

Results

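The genes described here build the extracellular matrix or hold cells to it and to each other. They were chosen by symbol alone: collagens, laminins, integrins, ADAM and ADAMTS proteins, matrix metalloproteinases and their TIMP inhibitors, cadherins, protocadherins and FAT cadherins, fibrillins and fibulins, fibronectin (FN1), tenascin C (TNC), thrombospondins, SPARC proteins, versican (VCAN), lysyl oxidases, plexins and semaphorins. Of the 4083 gene symbols in the 6 deposited lists, 83 met this rule, and none of them was a pseudogene, an antisense RNA or an unrelated protein that only shares the letters. Apart from being listed, no measured value entered the choice.

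The study looked for RNA bound to EZH2, the histone-methylating enzyme of the repressive complex PRC2, by RNA immunoprecipitation (RIP), in which RNA that comes down with a protein is sequenced. The labels describe 26 libraries in 15 groups. Small RNA from untreated cells was sequenced after precipitation with an EZH2 antibody or with IgG2a, and as input, in K562 (an immortalized chronic myeloid leukaemia line, 3 libraries), T98G and U87MG (immortalized glioblastoma lines, 6 libraries each). T98G also gave 6 libraries of fragmented, rRNA-depleted long RNA of the same 3 kinds and 1 EZH2 iCLIP library, in which RNA is crosslinked to the protein before precipitation. Polyadenylated RNA of U87MG came from cells given siRNA against EZH2 or, as control, against GFP, with 2 libraries per arm, and the treatment label of 1 of the siEZH2 libraries names EZH3. The 1 or 2 libraries of a group come from 1 line, and the labels do not say whether they came from separate cultures. The deposited lists hold called exons, genes and introns only, with 0 columns of values for single libraries. No replicate error could be computed, read depth is unknown, and markers of the cell lines could not be checked. Intervals given below are 95% Wilson intervals over genes, exons or peaks and cover counting error only.

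As background, matrix proteins such as collagens, laminins and fibronectin are secreted and assembled into fibrils and sheets outside the cell. Integrins are paired alpha and beta chains that bind these proteins and link them to the actin skeleton, while cadherins join cells to each other and plexins are the receptors of semaphorin guidance signals. Metalloproteinases of the MMP, ADAM and ADAMTS families cut matrix and surface proteins, and glioblastoma cells are known for moving through brain tissue along matrix and vessels.

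The annotation holds 303 protein-coding genes with such symbols, of which 83 (27.4%) were in at least 1 list, beside 17.8% of all 20176 annotated protein-coding genes. Genes silent in these cells are part of this background. The T98G list of full-length RNA targets named 31 of the 303 (10.2%, background 4.26%), and the siEZH2 table of U87MG named 42 (13.9%, background 6.29%). Called small RNA exons were found in 31 genes in T98G (10.2%, background 8.48%), in 9 in U87MG (2.97%, background 2.58%) and in 3 in K562 (0.99%, background 1.60%). The shares in the full-length list and the siEZH2 table were thus above the background of the same list, and those in the small RNA lists were close to it.

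By family, the lists took up very different shares of the annotated genes. The annotated totals, like the 303, count every protein-coding symbol with the family's letters. Unlike the 83 listed genes, they were not screened for unrelated proteins that share the letters. Plexins had 6 of 9 genes listed and the glycoproteins (FN1, TNC, thrombospondins, SPARC proteins and VCAN) 8 of 9. Collagens had 14 of 44 listed, integrins 10 of 30, laminins 4 of 12 and the ADAM proteases 9 of 21. Protocadherins, by far the largest of these families, had 5 of 66, and ADAMTS proteins 3 of 24. MMP and TIMP genes had 7 of 28 listed, cadherins with FAT genes 8 of 27, semaphorins 6 of 20, lysyl oxidases 2 of 6, and fibrillins with fibulins 1 of 7.

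Most genes were in 1 list only: 54 of 83, comprising 27 of the siEZH2 table, 12 of the full-length list, 12 with T98G exons and 3 with U87MG exons. A further 24 were in 2 lists and 5 in 3. The 5 were COL7A1 and TNC (small RNA exons in T98G and U87MG, and full-length target), ITGB1 (small RNA exons in all 3 lines), ITGAV (small RNA exons in T98G and U87MG, and siEZH2 table) and FAT1 (T98G exon, full-length target and siEZH2 table). ITGB1, the beta chain that most fibronectin, collagen and laminin receptors share, was the only one of the 83 with a called exon in every line.

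**Figure D1:**
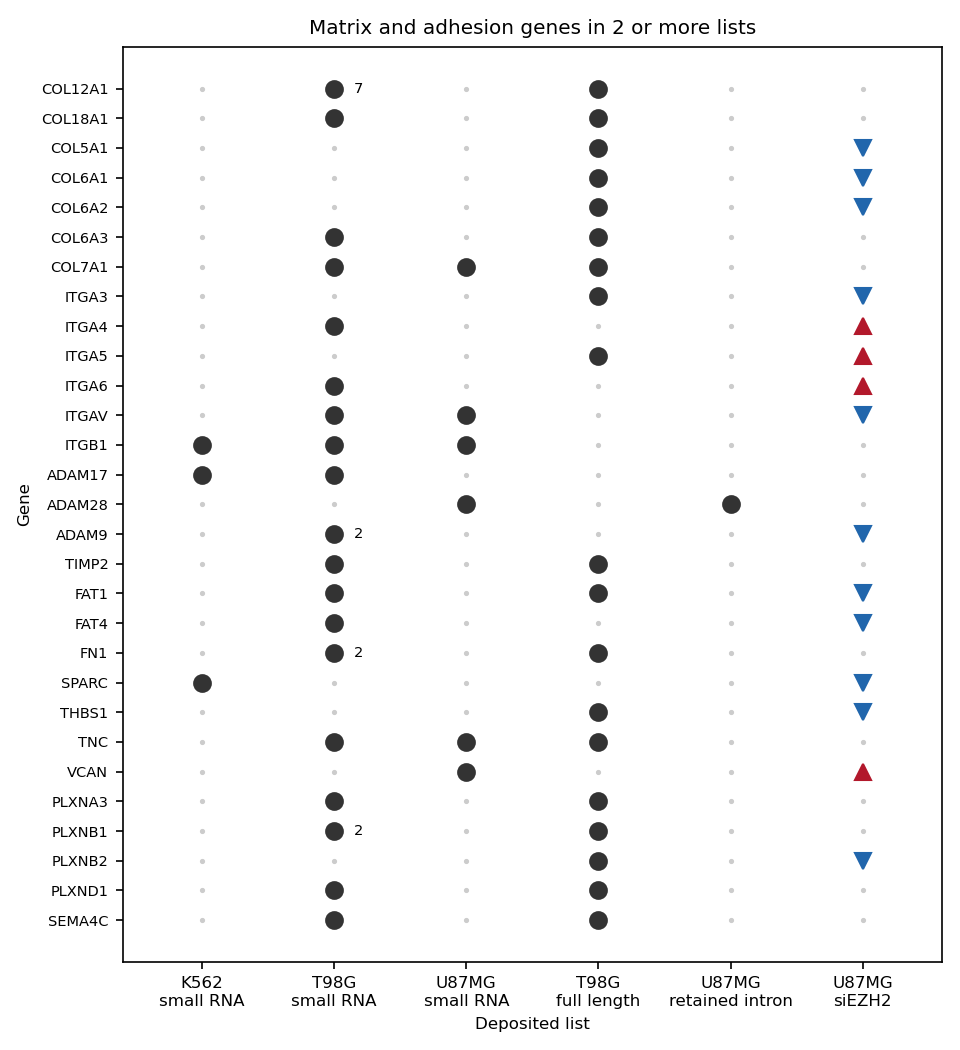
The 29 genes found in 2 or more of the 6 lists (rows) and the lists that name them (columns); a large dot marks a listed gene, a number beside it the called exons where there are several, and a triangle the direction of the deposited change under siEZH2 (up, higher; down, lower). COL12A1 has 7 called exons in T98G, and ITGB1 is the row with dots in all 3 small RNA columns.

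Of the 10 small RNA exons called in collagen genes in T98G, 7 lay in COL12A1. This gene encodes the chain of collagen XII, a collagen that sits on the surface of fibrils and carries many fibronectin type III repeats. Its 7 called exons were numbers 15, 22, 34, 40, 47, 50 and 56 of the 66 exons of its longest coding transcript, all wholly coding and 96 to 267 bp wide (chromosome 6, 75812313 to 75866239, minus strand, GRCh37). COL12A1 was also a full-length target in T98G. No exon of it was called in U87MG or K562, whose lists are far shorter (669 and 397 rows, against 2573 in T98G).

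Other collagens gave 1 exon each. The basement membrane collagen gene COL18A1 (a stretch at exon 31 of 41) and COL6A3, a chain of the beaded microfibrils (exon 19 of 44, at 45 bp the narrowest called exon of these genes), were called in T98G and were full-length targets there. The last exon of COL15A1, number 42, and a 483 bp stretch over exons 47 and 48 of 51 of COL1A1, the main chain of type I collagen, were called in U87MG. COL7A1, the chain of the anchoring fibrils that tie skin epithelium to the dermis, had exon 19 of 118 called in both glioblastoma lines (chromosome 3, 48626075 to 48626221, minus strand). COL1A2, COL5A1, COL6A1 and COL6A2 were full-length targets in T98G without a called small RNA exon. The labels tie the full-length list to the iCLIP library and do not say whether the long RNA libraries entered it.

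FN1, the fibronectin gene, had exon 6 of 46 and a stretch at exon 43 called in T98G (chromosome 2, 216292903 to 216293061 and 216230228 to 216230476, minus strand) and was a full-length target. TNC, whose protein lowers the grip of cells on fibronectin, had exon 4 of 28 called in T98G and U87MG (chromosome 9, 117846488 to 117846751, minus strand, 264 bp) and was a full-length target. VCAN, a large chondroitin sulphate proteoglycan, had exon 3 of 15 called in U87MG (chromosome 5, 82785917 to 82786291, plus strand). SPARC, a collagen-binding glycoprotein, had a 188 bp stretch at exon 7 of 10 called in K562. The last but 1 exon of FBN1, the microfibril protein fibrillin 1, was called in T98G (exon 65 of 66). So was a 427 bp stretch at exon 32 of 39 of the laminin chain gene LAMA4. LAMB1, LAMB2, THBS1 and THBS3 were full-length targets in T98G.

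Integrin exons took up similar shares of the small RNA lists: 9 of 2573 rows in T98G (0.35%), 2 of 669 in U87MG (0.299%) and 1 of 397 in K562 (0.252%). The 9 in T98G came from 7 genes. ITGA11, a collagen receptor chain, had exons 9 and 20 of 30 and a stretch at exon 7 called. ITGA2, ITGA4, ITGA6, ITGAV, ITGB1 and ITGB8 had 1 exon each. ITGAV, the alpha chain of vitronectin receptors, had exon 19 of 30 called in T98G and exon 14 in U87MG, so the gene was shared and the exon was not. ITGB1 had exon 5 of 18 called in both T98G and U87MG (chromosome 10, 33218750 to 33218972, minus strand) but exon 12 in K562 (33208813 to 33209012). ITGA3 and ITGA5, alpha chains of laminin and fibronectin receptors, were full-length targets without a called exon. All 6 listed plexin genes (PLXNA1, PLXNA3, PLXNB1, PLXNB2, PLXNB3 and PLXND1) were full-length targets. PLXNA3, PLXNB1 (exon 5 and a stretch at exon 37 of 38) and PLXND1 (exon 2 of 36) also had called T98G exons. PLXNB3, ADAM15, ADAMTSL4 and TIMP2 stood in 4 full-length rows that join the gene with an overlapping neighbour, and the row does not say which of the genes was called.

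Among ligands and proteases, T98G exons were called in 2 of 20 annotated semaphorin genes and 2 of 21 ADAM genes. For MMP and TIMP genes it was 1 of 28 and for ADAMTS genes 0 of 24, beside 10.2% of all 303 genes. SEMA4C had exon 6 of 15 called in T98G and was a full-length target, SEMA4D was a full-length target, and the last exon of SEMA6D was called in T98G. ADAM17, the sheddase that releases TNF from the cell surface, had the same exon 6 of 19 called in K562 and T98G (chromosome 2, 9666240 to 9666373, minus strand). ADAM9 had exon 2 and a stretch at exon 6 of 23 called in T98G, and ADAM23, a protein without protease activity, exon 23 of 26 in U87MG. MMP2 and MMP14, a gelatinase and the membrane protease that activates it, were full-length targets, as was TIMP2, the inhibitor that takes part in that activation. TIMP2 also had a T98G exon.

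Among the 2573 small RNA rows of T98G, 4 were exons of cadherin or FAT genes and 4 of protocadherins. None were among the 669 rows of U87MG or the 397 of K562. Those lists are far shorter, and a difference between the lines was not tested. CDH6 (a 1370 bp stretch at exon 11 of 12), CDH13 (exon 13 of 15), FAT1 (exon 24 of 27) and FAT4 (a 5188 bp stretch at exon 2 of 18) had 1 call each. The protocadherins PCDH18, PCDHB4 and PCDHB10 had 1 large exon each called, of 2893 to 3621 bp. For PCDHB16 the listed stretch of 4814 bp (140560980 to 140565793) overlaps every exon of its longest coding transcript. It begins upstream of the annotated gene and stops a few bases short of the gene's end. The annotation splits this transcript into 3 exons of 3838 bases together, while the gene spans 140561962 to 140565801 on chromosome 5. The gaps between the 3 are therefore only a few bases, and these 3 may not be separate exons. FAT1 and CDH24 were full-length targets. None of the 9 U87MG exons came from these families, a count of 0 that allows up to 33.3%. For the 3 K562 exons a count of 0 allows up to 100%. This limit, and each limit given for a count of 0, is 3 counts divided by the total and is not a Wilson bound.

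**Figure D2:**
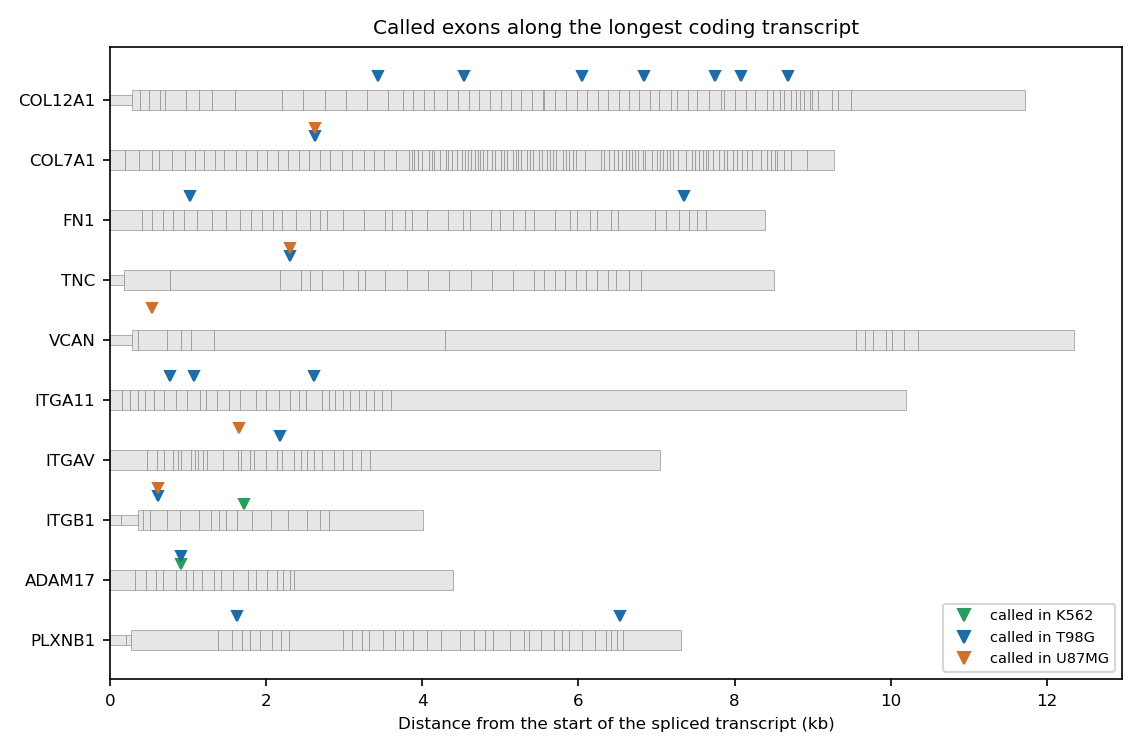
Spliced longest coding transcripts of 10 genes drawn to scale in kb from the transcript start; boxes are exons (taller where they hold coding sequence) and triangles mark exons called in K562, T98G or U87MG. The 7 COL12A1 calls are spread over the transcript, and the T98G and U87MG marks coincide for COL7A1, TNC and ITGB1 but not for ITGAV.

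Exons shared between lines were few. Of the 9 U87MG exons, 3 were also called in T98G (33.3%, interval 12.1 to 64.6), in ITGB1, TNC and COL7A1, each with identical ends. Over the whole U87MG list the share was 65.0%, just above that wide interval. Of the 42 T98G exons the same 3 were in U87MG (7.14%, 2.46 to 19.0; whole list 16.9%). Of the 3 K562 exons 1, in ADAM17, was in T98G (whole list 45.6%).

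The called exons were mostly coding sequence from within long transcripts. In T98G 25 of 42 were wholly coding (59.5%, 44.5 to 73.0), beside 55.7% of the whole list, and the other 17 partly. An exon of the longest coding transcript coincided with 26 of the 42. The same held for 1467 of all 2174 T98G rows that could be placed in a transcript. Their median width was 202 bp, against 187 bp for the whole T98G list, and their median GC content was 46.2% against 44.1%. The transcripts had a median of 30 exons, against 19 over all T98G rows that could be placed in a transcript. In 5 of the 42 cases the exon was the last of its transcript and in 4 the first. Over all 2174 placed T98G rows, 254 were last and 48 first. PCDHB4, PCDHB10 and PCDHB16, whose rows overlap the first and the last exon, counted as both.

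The T98G list carries a signed distance for each exon, which the file does not explain. It was read here as the exon middle minus the middle of the small RNA peak, so peak positions are inferred, and 41 of the 42 exons gave a usable one. With the distance added in place of subtracted, the share of peaks with AGAT in the window described below was 4.88% in place of 26.8%. The middle of the peak fell on a coding base in 37 of 41 (90.2%, 77.5 to 96.1; all T98G peaks 74.4%). The exceptions were COL18A1, ITGA11 at exon 7, ITGAV and ITGB8. For ITGAV the peak middle lay beyond the end of the listed exon. Because the study's title names mispriming in reverse transcription, the bases downstream of some of these peaks are shown. ADAM17, ITGB1 and COL7A1 are exons shared between lines that have AGAT in the window described below. The TNC exon, shared too, has no AGAT there and is shown further below. FAT4 and PLXNA3, which match 6 or more bases of the library adapter, are also shown, with CDH13 as an example of a shorter match. Sequences are the coding strand of the GRCh37 reference, up to 30 bases either side of the peak middle and within the listed exon. Capitals mark AGAT or a longer run of the adapter's first 7 bases, AGATCGG, where it starts 11 to 15 bases downstream of the peak middle.
ADAM17 exon 6, minus strand, chr2:9666323-9666373: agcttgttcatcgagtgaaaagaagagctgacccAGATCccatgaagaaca
ITGB1 exon 5, minus strand, chr10:33218750-33218797: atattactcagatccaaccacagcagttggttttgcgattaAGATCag
COL7A1 exon 19, minus strand, chr3:48626154-48626213: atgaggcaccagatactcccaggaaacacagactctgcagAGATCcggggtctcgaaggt
FAT4 exon 2, plus strand, chr4:126241976-126242035: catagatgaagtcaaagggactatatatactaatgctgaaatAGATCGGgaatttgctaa
PLXNA3 exon 25, plus strand, chrX:153697252-153697311: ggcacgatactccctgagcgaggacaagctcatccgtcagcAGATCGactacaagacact
CDH13 exon 13, plus strand, chr16:83813758-83813806: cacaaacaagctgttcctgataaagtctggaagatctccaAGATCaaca

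Of the 41 peaks, 11 had AGAT in that window (26.8%, 15.7 to 41.9), as did 25.8% of all 2463 T98G peaks. The share in these genes was therefore that of the list as a whole. They were peaks of ADAM17, CDH13, COL12A1 (3 peaks), COL6A3, COL7A1, FAT4, ITGB1, PLXNA3 and SEMA4C. In the window 20 bases further downstream AGAT started at 0 of 41 peaks, which allows up to 7.32%, and at 3.41% of all peaks. AGATC was found at 8 peaks, AGATCG at 3 (COL12A1 exon 50, FAT4 and PLXNA3) and AGATCGG at 1 (FAT4). The window had been chosen from an earlier look at the whole list, so these counts are a description. What part such matches have in the calls was not tested.

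The 7 COL12A1 peaks show the range within 1 gene, since 3 had AGAT in the window and 4 did not. They are listed in transcript order, marked as before.
COL12A1 exon 15, chr6:75866192-75866239: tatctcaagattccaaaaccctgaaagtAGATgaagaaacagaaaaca
COL12A1 exon 22, chr6:75858103-75858162: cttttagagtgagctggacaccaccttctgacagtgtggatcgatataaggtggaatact
COL12A1 exon 34, chr6:75843019-75843078: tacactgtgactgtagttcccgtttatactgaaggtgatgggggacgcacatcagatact
COL12A1 exon 40, chr6:75834843-75834900: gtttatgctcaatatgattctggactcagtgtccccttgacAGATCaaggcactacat
COL12A1 exon 47, chr6:75827135-75827194: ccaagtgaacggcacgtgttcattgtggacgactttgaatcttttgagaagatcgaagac
COL12A1 exon 50, chr6:75823318-75823362: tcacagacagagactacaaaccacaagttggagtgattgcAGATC
COL12A1 exon 56, chr6:75812313-75812367: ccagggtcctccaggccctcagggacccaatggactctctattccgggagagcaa
In exon 50 the match ends with the exon, and in the genome the following intron base extends it to AGATCG. Exon 47 holds AGATCG too, but starting 20 bases downstream of the peak middle and so outside the window.

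**Figure D3:**
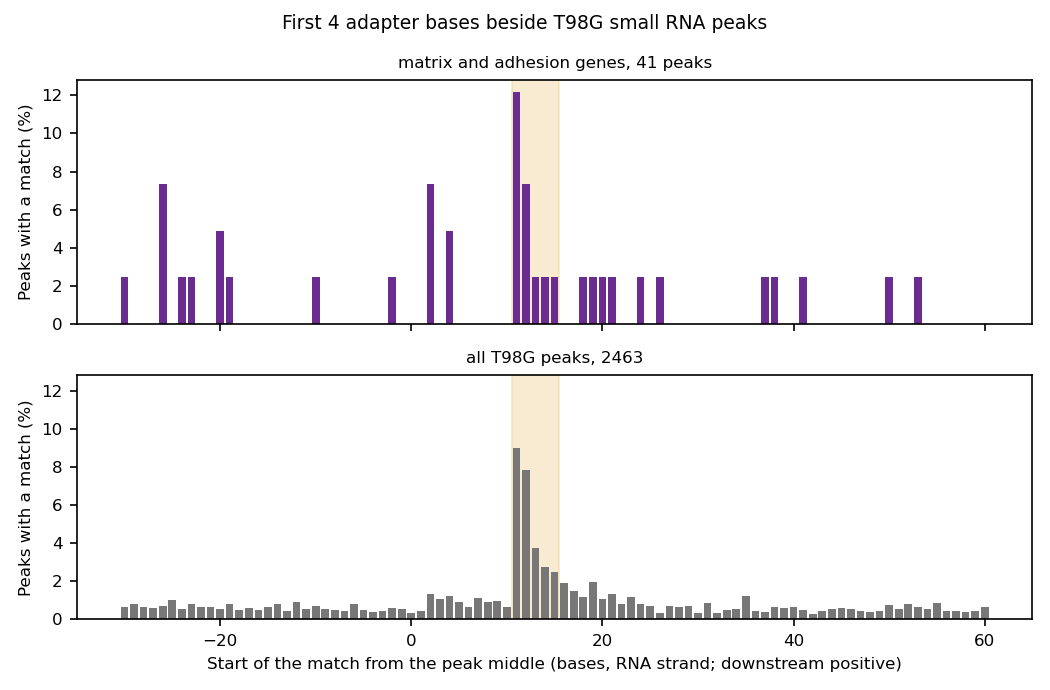
Share of T98G peaks at which the first 4 adapter bases start at each position from the peak middle on the RNA strand (x axis in bases, downstream positive), for the 41 peaks in matrix and adhesion genes (top) and all 2463 peaks (bottom); shading marks starts 11 to 15. Both panels are highest at 11 bases, at 12.2% and 8.97%, and each bar of 2.44% in the top panel is a single peak.

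Several peaks without AGAT in the window ran into bases 7 to 12 of the same adapter, GAAGAG, a motif searched only after the sequences had been read. It started 1 to 30 bases downstream of the peak middle at 9 of 41 peaks (22.0%, 12.0 to 36.7), beside 18.2% of all T98G peaks. It started at 0 of 41 in the 30 bases upstream (2.07% of all peaks) and at 0 of 41 from 31 to 60 bases downstream (2.88% of all peaks), where 0 allows up to 7.32%. The 8 such peaks without AGAT in the window lay in ADAM9 (2 peaks), ITGA2, ITGA4, ITGB8, PCDHB4, TIMP2 and TNC. For ITGA2 the match starts 19 bases downstream of the peak middle, beyond the end of the listed exon. Capitals mark GAAGAG in 3 of these 8 peaks, of which the TNC exon was called in U87MG too.
TNC exon 4, minus strand, chr9:117846702-117846751: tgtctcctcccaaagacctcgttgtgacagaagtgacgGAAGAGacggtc
ITGA4 exon 20, plus strand, chr2:182388898-182388956: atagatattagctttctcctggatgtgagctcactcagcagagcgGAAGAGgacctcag
TIMP2 exon 4, minus strand, chr17:76853631-76853690: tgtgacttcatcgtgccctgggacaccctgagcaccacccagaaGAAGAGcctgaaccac
AGAT in the window or GAAGAG was present at 19 of 41 peaks (46.3%, 32.1 to 61.3), and at 41.0% of all T98G peaks. The other 22 peaks, among them both FN1, all 3 ITGA11 and both PLXNB1 peaks, had neither.

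The U87MG and K562 lists give no peak position, so whole exons were searched on the strand of the RNA. AGATCG was in 3 of 9 U87MG exons (33.3%, 12.1 to 64.6; whole list 10.8%), on the opposite strand in 0, and on either strand in 0 of 3 K562 exons. The 3 U87MG exons are shown around the match, in capitals.
ADAM23 exon 23, plus strand, chr2:207459515-207459568: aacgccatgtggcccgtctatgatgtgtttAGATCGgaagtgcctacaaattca
COL1A1 exons 47 and 48, minus strand, chr17:48264070-48264123: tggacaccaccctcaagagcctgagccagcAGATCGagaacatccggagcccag
ITGAV exon 14, plus strand, chr2:187514567-187514612: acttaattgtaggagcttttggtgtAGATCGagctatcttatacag
In T98G AGATCG was in 5 of 42 exons (11.9%, 5.19 to 25.0), beside 10.6% of the whole list, and on the opposite strand in 1. Of these 5, 4 were among the 13 exons wider than 300 bp and 1 among the 29 narrower ones, so width and match moved together.

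Within the 31 genes with a T98G call, the called exons can be set beside the others of the same transcripts. The 42 listed exons overlap 45 annotated ones, with PCDHB16 counted as 3. Of these 45, 80.0% held AGAT, 11.1% AGATCG and 24.4% GAAGAG. The 851 other exons held them in 44.5%, 2.59% and 9.05%. Median width was 149 bp for the former and 126 bp for the latter, and widths were not matched. The 5 called exons with AGATCG lay in listed stretches of FAT4 (5188 bp), PCDHB16 (4814 bp), PCDH18 (2893 bp), PLXNA3 (353 bp) and COL12A1 (165 bp). PCDHB4, PCDHB10 and PCDHB16 gave no other exon for the comparison. In COL12A1, AGAT was in 5 of 7 called and 24 of 59 other exons. In COL7A1 it was in the 1 called exon and in 20 of 117 others.

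Full-length and small RNA calls in T98G met in 12 genes: COL12A1, COL18A1, COL6A3, COL7A1, FAT1, FN1, PLXNA3, PLXNB1, PLXND1, SEMA4C, TIMP2 and TNC. They were 38.7% of the 31 full-length targets (23.7 to 56.2), beside 22.7% of all 926 full-length symbols. They were equally 38.7% of the 31 genes with a T98G exon, beside 10.3% of all 2046 symbols of that list. Both calls need the RNA to be expressed in T98G, and expression is not given, so its part was not tested.

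The authors' deposited table of U87MG genes at an adjusted p under 0.05 gave a direction for 42 of the 83 genes. Values are log2 fold changes of siEZH2 over siGFP as deposited, without errors used here, and the direction follows the order of names in the table's title. The table has 0 rows for EZH2, so depletion of the target could not be checked. In such bulk RNA, fewer cells of a kind and less RNA per cell cannot be told apart. Of the 42 genes, 25 were higher under siEZH2 in the authors' deposited table (59.5%, 44.5 to 73.0) and 17 lower, where 49.3% of all 1342 rows were higher. The median of the 25 was 1.18 (range 0.52 to 1.75) and that of the 17 was -0.85 (range -1.54 to -0.45), against 1.01 and -0.74 over the whole table.

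Collagen genes and the enzymes that crosslink collagen were mostly lower. Of 7 collagen genes in the authors' deposited table, 5 were lower: COL5A2 (-1.42), COL5A1 (-0.85), COL27A1 (-0.82), COL6A2 (-0.70) and COL6A1 (-0.54). The other two were higher, the basement membrane chain COL4A2 (1.22) and COL22A1 (1.18). LOX (-0.66) and LOXL3 (-0.65), lysyl oxidases that crosslink collagen and elastin, were both lower in the authors' deposited table. So was the laminin chain gene LAMA5 (-1.27; chromosome 20, 60883011 to 60942368). Of the glycoproteins, THBS1, an activator of TGF-beta, had the lowest value of all 42 in the authors' deposited table (-1.54; chromosome 15, 39873280 to 39891667) and SPARC was lower (-0.45), while SPARCL1 (1.28), VCAN (1.20) and THBS4 (1.01) were higher.

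Receptors went both ways. ITGA6, a laminin receptor chain, had the highest value of the 42 in the authors' deposited table (1.75; chromosome 2, 173292082 to 173371181), followed among integrins by ITGA4 (1.16), the leukocyte chain ITGAX (1.10) and ITGA5 (0.63). ITGAV (-0.88) and ITGA3 (-0.56) were lower in the authors' deposited table, as was the semaphorin receptor gene PLXNB2 (-1.03). The semaphorins listed, SEMA4A (1.26), SEMA5A (1.24) and SEMA7A (0.98), were all higher there.

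Proteases and inhibitors were mostly higher. In the authors' deposited table all 4 listed MMP and TIMP genes rose: the stromelysin-like MMP11 (1.27), TIMP4 (1.18), TIMP3 (1.10) and the collagenase MMP1 (0.92). ADAM21 (1.39), ADAM8 (1.22), ADAM10 (0.79), ADAMTS14 (0.97) and ADAMTS1 (0.52) rose as well, and ADAM12 (-1.50) and ADAM9 (-0.47) fell in the authors' deposited table. Of the cadherins, CDH18 (1.47), CDH7 (1.39), CDH23 (0.83) and the protocadherin PCDHB2 (0.96) were higher in the authors' deposited table. The giant cadherins FAT4 (-0.91) and FAT1 (-0.87) were lower there.

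**Figure D4:**
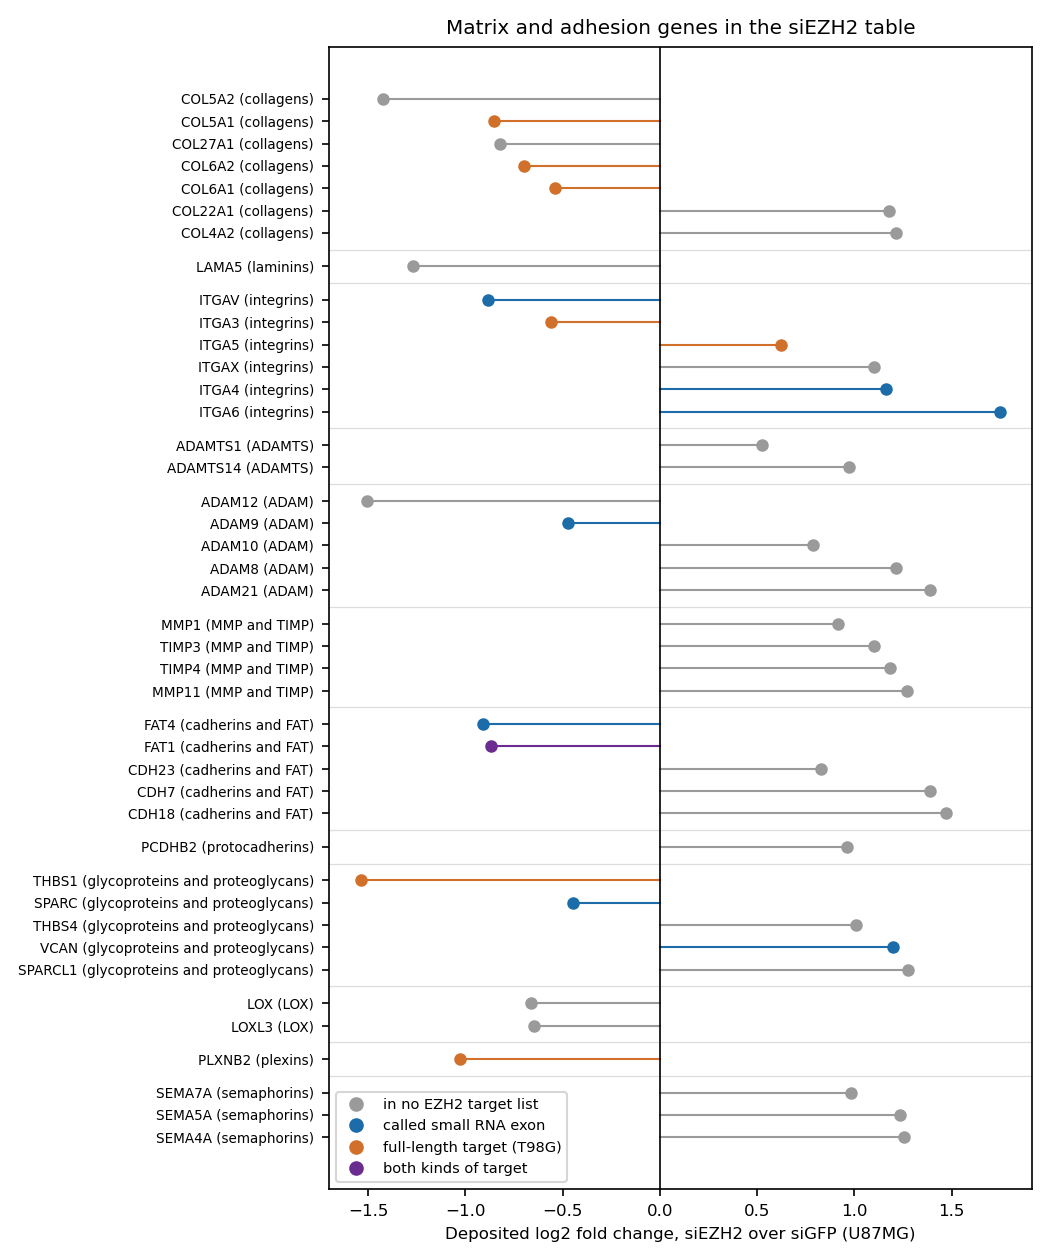
Deposited log2 fold change of siEZH2 over siGFP in U87MG (x axis, log2 scale) for the 42 listed matrix and adhesion genes, grouped by family; colour gives the kind of EZH2 target list that also names the gene, and the points carry no errors. Among the coloured genes, 15 in number, 11 lie left of 0, and 21 of the 27 grey ones lie right of it.

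The shares of higher genes inside and outside the EZH2 target lists are given here as a description, and their difference was not tested. Of the 8 full-length targets of T98G with a value, 7 were lower in the authors' deposited table (COL5A1, COL6A1, COL6A2, FAT1, ITGA3, PLXNB2 and THBS1) and ITGA5 was higher. Of all 111 full-length targets in the authors' deposited table, 15.3% were higher. With a called small RNA exon in any line, 3 of 8 genes were higher (ITGA4, ITGA6 and VCAN) and 5 lower (ADAM9, FAT1, FAT4, ITGAV and SPARC). Together, 4 of 15 genes in a target list were higher (26.7%, 10.9 to 52.0), against 21 of 27 in none (77.8%, 59.2 to 89.4). The corresponding shares over all rows of the authors' deposited table were 26.5% of 302 and 55.9% of 1040. These shares pool target calls of all 3 lines, while the siRNA was given to U87MG only. Of the 15 genes, 2 had a called exon in U87MG itself, VCAN (higher) and ITGAV (lower). Expression level is not given, so its part in these shares was not tested.

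Of the 43 retained intron rows, 1 lay in these genes. The list's title calls its introns proximal to EZH2 seRNA, read here as the called small RNA exons. Nearness to a called exon thus follows from how the list was made and is no separate result. The intron of ADAM28, a lymphocyte-enriched metalloproteinase gene, spans 1206 bp (chromosome 8, 24199269 to 24200474, plus strand) and has a deposited score of 1.03 on a scale that is not stated, the lowest in a list that reaches 2.68. It overlaps by 2 bp the 889 bp ADAM28 stretch called in U87MG (24198382 to 24199270), of which 160 bases, exon 16 of 24, are coding.

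A further 117 genes of the same biology but with other names were looked up: proteoglycans, collagen-modifying enzymes, proteins that tie integrins and cadherins to actin, and other adhesion receptors. They were chosen by function, and 52 of them (44.4%, background 17.8%) were in at least 1 list and 18 in 2 or more. T98G small RNA exons were called in 21 (17.9%, background 8.48%), U87MG exons in 8 (6.84%, background 2.58%) and K562 exons in 7 (5.98%, background 1.60%). Full-length targets numbered 23 (19.7%, background 4.26%). The list was put together with earlier results of these data known, so these shares are a description. Some proteins on the inner side of adhesions had calls in several lines, and others did not. VCL (vinculin) and DST (dystonin) had exons in all 3, and FLNA (filamin A), which crosslinks actin, had exons in all 3 and was a full-length target. ACTN1, ACTN4 and TNS3 had exons in T98G only and PTK2 in U87MG only. PXN, ILK, PARVA, ZYX, FERMT1 and FERMT2 were in no list. Of the 117 genes, 7 were higher (35.0% of the 20 with a value, against 49.3% of all rows) and 13 lower in the authors' deposited table, with a median of -0.55. Several that were also full-length targets were lower in the authors' deposited table: HSPG2 (-0.95), AGRN (-0.73) and TGFBI (-0.77) of the matrix, the collagen-modifying PLOD3 (-0.55) and LEPRE1 (-0.48), and TLN1 (-0.73) and FLNC (-1.10), which bind actin.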

How the data were processed

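The sources were 6 lists of regions. Per the labels, the authors trimmed reads with cutadapt and aligned them to hg19 with BWA (small RNA), Bowtie2 (iCLIP) or Tophat (long RNA; in the siRNA experiment Tophat 2 v2.0.11, unstranded). Counting by the authors used bedtools (exons) or featureCounts (genes), followed by DESeq2 and, for small RNA peaks, pyicoclip. CASAVA 1.8 stands in the submitters' processing notes. Thresholds are not given in the sources used here. The siEZH2 table holds the authors' log2 fold changes, and the retained intron list a deposited score. The last column of the K562, U87MG and full-length lists counts the names joined in a row and was not used. In the T98G list it was read as exon middle minus peak middle, in genome direction, and 110 of 2573 rows whose peak middle was not a whole position were left out of peak counts.

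Symbols were matched to GENCODE release 44 on GRCh37 (all 83 matched, older symbols included), and the longest coding transcript gave exon numbers. Scripts ran in Python 3.11.15 with scipy 1.17.1, and coordinate, overlap and motif functions were tested on simulated sequence. Overlaps needed 1 base on the same strand. The lists allow no test over libraries, so results are counts beside the whole list. The adapter letters come from general knowledge of the library kit. Members, gene lists and windows were chosen with earlier results of these data known. Genes in 2 or more lists, in the siEZH2 table, with several called exons or with a retained intron are named with their values. Genes with AGATCG in the window beside a T98G peak are named for their sequence. Other genes named with an exon number or a sequence fall outside this rule and were chosen after their values were seen.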

Additional observations from a re-analysis of the deposited data

How the results depend on the processing

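No paired analysis was possible because the lists hold no values for single libraries, and for the same reason no library could be left out. Of 26 alternatives, 20 left the value within its interval or, for counts, within 1.5 times. Counting 1 name a row, joining exons within 1000 bp, taking 1 exon per gene, asking for 50% overlap or identical ends, and matching by position were all among these. With an absolute log2 fold change of at least 1, 77.3% of the 22 genes left in the authors' deposited table were higher, beside 73.9% of all 468 rows past that limit. AGAT beside T98G peaks fell to 12.2% at start 11 alone and to 4.88% with the distance added in place of subtracted, and 7.32% had AGATCG. In whole T98G exons 78.6% held AGAT, and AGATCG was in 3.45% of those up to 300 bp wide; longer motifs and fewer positions or bases leave fewer matches by construction. Small counts limit all shares: K562 has 3 exons and U87MG 9.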

Other observations

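Exons whose width is a multiple of 3 can be skipped without shifting the reading frame, and the repeats of many matrix proteins are coded by such exons. Among the T98G exons of these genes that were internal, wholly coding and identical to an exon of the longest coding transcript, 13 of 24 had such a width (54.2%, 35.1 to 72.1). Over the whole T98G list the share was 38.4% of 1338 exons, which lies within that interval. In U87MG it was 3 of 6, beside 42.3% of 407 exons of the whole list, and in K562 0 of 2, beside 33.9% of 177.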
